A study of Homo sapiens with 12 samples.

Results

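The comparison concerns SKR6CA, a HER2-positive breast cancer line with constitutive NF-kB activity from a transduced p65, against SKR6, the line it was made from. SKR6 cells were sorted for high HER2 from the human breast cancer line SKBR-3, in which the ERBB2 (HER2) gene is amplified. SKR6CA received a retrovirus for the constitutively active RelA protein CAp65 and was selected with puromycin. The 3 arrays of each line, 6 of the 12 arrays of the series, were taken by their labels, and RNA was isolated after 48 hours of culture. Another line, SKR6-Vector, carried the empty retroviral vector pQCXIP, was also puromycin-selected, and is given beside the comparison. The remaining line, SKR6LR, came from SKR6 kept in lapatinib at 0.2 to 5 µM and was not compared here. All lines share the SKBR-3 background and its HER2 amplification. SKR6 was neither transduced nor selected, so active p65 cannot be told apart from transduction and selection in this comparison. Whether SKR6CA is a pool or a clone, and whether its replicates were derived separately, is not stated in the labels.

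NF-kB is a family of dimeric transcription factors that IkB proteins hold in the cytoplasm. Signals from cytokine receptors activate IkB kinases, IkB is degraded, and the dimers enter the nucleus and bind kB sites in the promoters of cytokine, chemokine, adhesion and survival genes. Several of the induced genes encode inhibitors of the pathway, above all NFKBIA and TNFAIP3. In breast epithelium NF-kB acts beside the HER2 and EGFR receptors, which drive growth through the ERK and PI3K pathways.

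All levels below are log2 values from robust multi-array averaging (RMA), all differences are on the log2 scale, and a gene was called at an adjusted p under 0.05 in limma. Each gene is given by its brightest probe set, and other probe sets of a gene often gave smaller differences, which are given beside many of the genes named. The array medians lay between 5.74 and 5.77. The mean replicate SD was 0.0958 in SKR6, 0.0965 in SKR6-Vector and 0.107 in SKR6CA, and replicate arrays correlated at 0.9983 or more within each of these lines. The actin control, as 3′ minus 5′ signal, was 1.45 to 1.61 in SKR6 and 1.19, 1.48 and 1.73 in SKR6CA, and its part in the results was not tested. Epithelial and HER2 identity was present, with KRT19, a luminal keratin, at 14.41 to 14.49 in SKR6CA and 14.42 to 14.48 in SKR6. CDH1, the epithelial cadherin, was low in both lines, at 4.14 to 4.41 in SKR6 and 4.21 to 4.39 in SKR6CA. Markers of other cell types gave array means of 4.73 to 4.84 in SKR6 and 4.77 to 4.84 in SKR6CA for 7 leukocyte genes, and of 5.38 to 5.44 and 5.34 to 5.44 for 8 fibroblast genes. The leukocyte marker PTPRC was lower by 0.18, a call lost without SKR6 replicate 2 or SKR6CA replicate 1, and the fibroblast marker PDGFRB by 0.29, with none higher in either list. Of the 5 endothelial markers only CDH5, the endothelial cadherin, was called (2 markers without SKR6CA replicate 3), at 4.91 to 5.26 in SKR6, 8.06 to 8.17 in SKR6-Vector and 8.18 to 8.29 in SKR6CA.

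The lines differed widely. Of 19775 genes, 2835 (14.3%) were higher and 4118 (20.8%) lower in SKR6CA, 35.2% of all genes called, mostly by small amounts, with a median absolute difference of 0.33 among the called genes. A difference of at least 1 was reached by 258 higher genes (1.30%) and 179 lower genes (0.905%). A difference of at least 2 was reached by 69 higher and 25 lower genes. All 3 SKR6CA arrays lay above the SKR6 arrays in 3811 genes (19.3%) and below in 5177 (26.2%). They lay above both SKR6 and SKR6-Vector in 2007 genes (10.1%) and below both in 2724 (13.8%). SKR6-Vector itself differed from SKR6, with 3328 genes (16.8%) higher and 3728 (18.9%) lower. SKR6CA minus SKR6 and SKR6-Vector minus SKR6 share the SKR6 arrays, so their values are set side by side below, and the difference between the transduced lines was tested directly.

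The genes of the NF-kB module itself were higher in SKR6CA. Of 10 measured NF-kB subunits and IkB proteins 9 were higher and 0 lower (90.0% and 0.0%, against 14.3% and 20.8% of all genes). The median difference was 0.54 against -0.01 over all genes. For 7 of the 10, all SKR6CA arrays lay above those of both other lines, as they did for 10.1% of all genes. RELA, the gene for p65, was 9.22, 9.07 and 9.20 in SKR6 and 9.35, 9.34 and 9.33 in SKR6CA. These groups did not overlap, and the difference was 0.18 (SE 0.0475, adjusted p = 0.0147). SKR6-Vector stood at 9.37 to 9.42, and SKR6CA and SKR6-Vector differed by -0.06 (adjusted p = 0.425). Without SKR6 replicate 2 the RELA difference was no longer called (adjusted p = 0.0532), nor with all 12 arrays in the fit (adjusted p = 0.207). A second RELA probe set gave 0.42. Whether either probe set detects the transgene was not tested.

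The inhibitor NFKBIA (IkB alpha), which holds p65 in the cytoplasm, was 11.88, 11.80 and 11.87 in SKR6 and 12.62, 12.55 and 12.47 in SKR6CA, with SKR6-Vector below both at 11.67 to 11.70. The SKR6CA arrays were the highest of the 9, with a difference of 0.70 (SE 0.0485, adjusted p = 3.81e-06). The other, dim NFKBIA probe set gave 0.11 and was not called, and the mean of both gave 0.40. The subunits RELB, REL, NFKB2 and NFKB1 were higher by 0.85, 0.57, 0.57 and 0.52, and by 0.73, 0.46, 0.38 and 0.44 against SKR6-Vector, all called. The other NFKB2 probe sets gave 0.44 and 0.12. The nuclear IkB protein NFKBIZ, a cofactor for secondary NF-kB targets, behaved differently. It was 7.97, 7.97 and 7.93 in SKR6 and 9.84, 10.16 and 9.94 in SKR6CA, but 9.90, 9.85 and 9.95 in SKR6-Vector, so both transduced lines stood about equally far above SKR6. SKR6CA minus SKR6 was 2.02 (adjusted p = 5.66e-08) and SKR6CA minus SKR6-Vector 0.08 (adjusted p = 0.448).

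The promoters of 6 genes of this module and its targets are shown. Each holds a kB-like match, GGG and TTCC with any 3 bases between them, within the 250 bases before the gene's start. Matches were sought on either strand (on the other strand GGAA, any 3 bases, CCC). All 6 genes were named for being higher in SKR6CA, so their direction follows from the choice. Matches in other named higher genes, MAP3K8, CDKN1A, PMAIP1 and CFLAR, are not shown. Those in genes that were lower, such as BST2 and MCM2, are not shown either. The sequences are those of RefSeq, assembly GRCh38.p14, written 5′ to 3′ on the gene's strand, with the match in capitals. The CCL20 stretch is chr2:227813738-227813797 (plus strand), the SELE stretch chr1:169734139-169734198 (minus) and the TNFAIP3 stretch chr6:137867167-137867238 (plus). The NFKBIA stretch is chr14:35404796-35404855 (minus), the REL stretch chr2:60881502-60881562 (plus) and the NFKBIZ stretch chr3:101827742-101827801 (plus).
CCL20: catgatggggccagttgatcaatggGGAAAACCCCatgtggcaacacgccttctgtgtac
SELE: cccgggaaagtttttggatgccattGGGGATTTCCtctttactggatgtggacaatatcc
TNFAIP3: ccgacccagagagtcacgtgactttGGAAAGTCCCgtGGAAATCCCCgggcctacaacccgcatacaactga
NFKBIA: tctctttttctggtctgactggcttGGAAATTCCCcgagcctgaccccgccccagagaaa
REL: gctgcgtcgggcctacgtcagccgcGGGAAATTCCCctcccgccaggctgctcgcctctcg
NFKBIZ: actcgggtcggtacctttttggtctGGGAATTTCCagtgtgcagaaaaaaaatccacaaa
The matches began 79 bases before the start in CCL20, 94 in SELE, 81 in NFKBIA and 223 in NFKBIZ. TNFAIP3 held a pair of matches, at 67 and 55 bases, and in REL the motif read on both strands at overlapping positions, 47 and 46 bases before the start.

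The motif was present in the promoters of 22 of 190 genes that were higher by at least 1 and had a promoter in the table (11.6%), of which 15 of 128 that also exceeded SKR6-Vector (11.7%) and 7 of 62 that did not (11.3%). It was present in 10 of 138 that were lower by at least 1 (7.25%). Among all genes tested with a promoter it was present in 959 of 15384 (6.23%), and among all promoters of the table in 1533 of 27305 (5.61%). It was present in 7 of 23 effector targets (30.4%) and 8 of 17 chemokines (47.1%), whether or not they differed. NFKBIZ, with a match, stood as high in SKR6-Vector as in SKR6CA. A match is a description of these letters only.

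**Figure D1:**
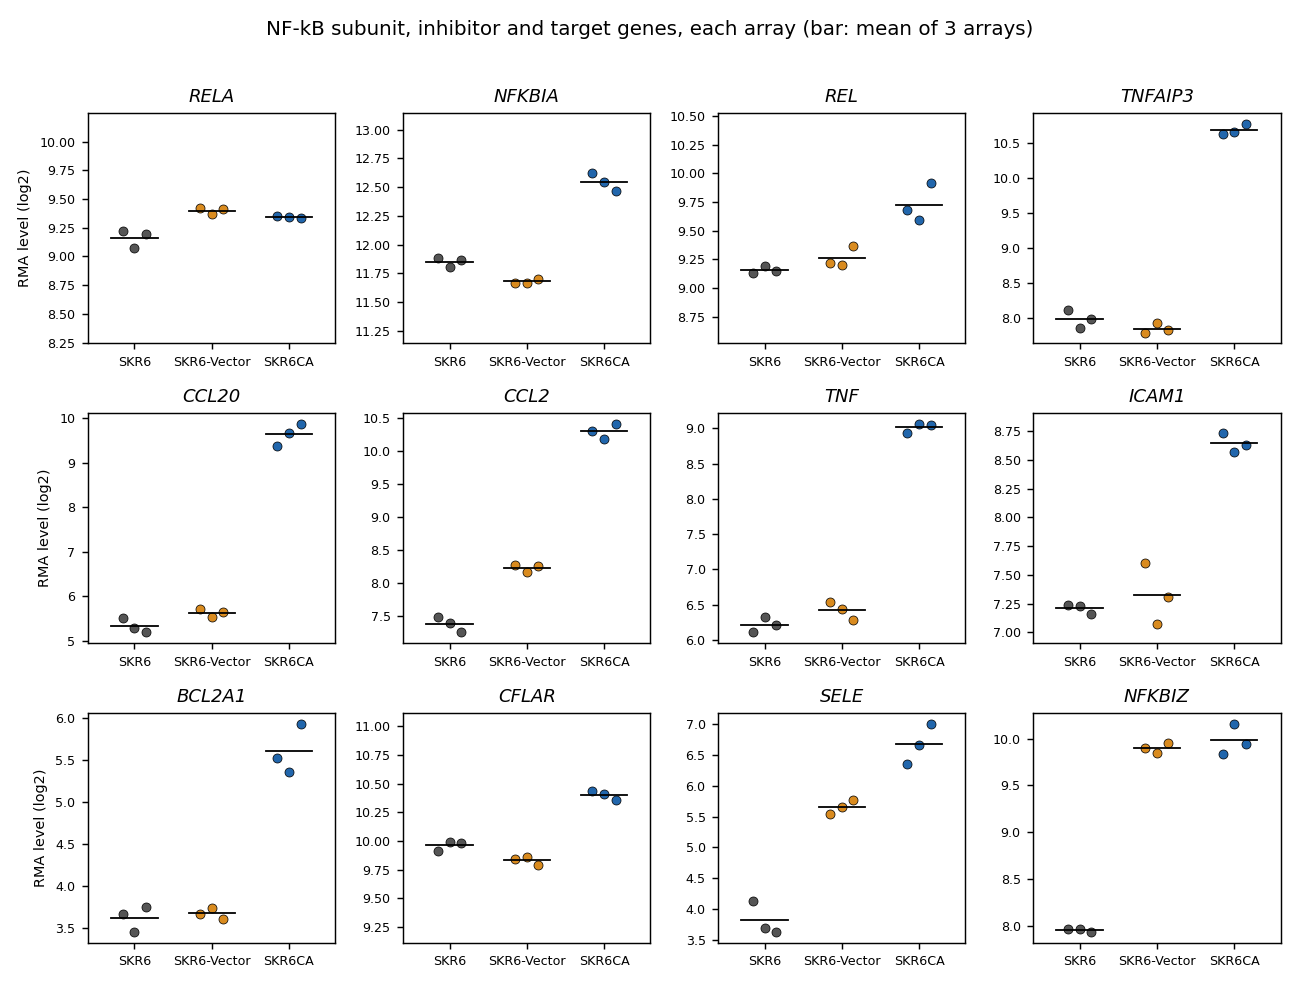
RMA level (log2, vertical axis, each panel with its own scale) of 12 NF-kB subunit, inhibitor and target genes on each of the 3 arrays of SKR6, SKR6-Vector and SKR6CA, with bars at the mean. SKR6CA stands clear of both other lines for NFKBIA, TNFAIP3, CCL20, CCL2 and TNF, while NFKBIZ is equally high in both transduced lines and RELA spans less than 0.4.

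Upstream of the IkB proteins, 9 of 20 measured kinases and adaptors were higher and 1 lower, with a median of 0.14. These shares, 45.0% and 5.0%, compare with 14.3% and 20.8% of all genes. MAP3K8 (TPL2), a kinase that feeds ERK signalling, was higher by 1.32, but also by 1.10 in SKR6-Vector. IKBKE, RIPK2 and IRAK2, kinases of innate immune signalling, were higher by 0.99, 0.80 and 0.78 and differed from SKR6-Vector by 1.05, 0.78 and 0.61, all called. The other IRAK2 probe sets gave 0.00 and -0.10, and with all 12 arrays IRAK2 was not called (adjusted p = 0.0924). The adaptor TRAF5 was lower by 0.30 (adjusted p = 0.0212), a call lost without SKR6 replicate 1 (adjusted p = 0.0576), SKR6 replicate 2 (0.0781) or SKR6CA replicate 3 (0.0789). The core IkB kinase genes CHUK, IKBKB and IKBKG gave 0.09, -0.03 and -0.04 and were not called.

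Of 9 measured brakes of the pathway 3 were higher and 3 lower (33.3% each, against 14.3% and 20.8% of all genes). TNFAIP3 (A20), the ubiquitin-editing inhibitor, was 8.11, 7.85 and 7.99 in SKR6 and 10.63, 10.66 and 10.77 in SKR6CA. SKR6-Vector was at 7.79 to 7.93, within the SKR6 range or just under it, and far below SKR6CA. The difference from SKR6 was 2.70 (SE 0.0716, adjusted p = 8.07e-09) and from SKR6-Vector 2.84 (adjusted p = 5.38e-09). TNIP1, which works with A20, and PDLIM2, a ligase that acts on nuclear p65, were higher by 0.99 and 0.66. The other PDLIM2 probe set gave -0.04. OTULIN, a deubiquitinase for linear chains, was lower by 0.70, with -0.28 and -0.60 on its other sets, and COMMD1 was lower by 0.30. SKR6-Vector minus SKR6 was -0.54 for OTULIN and -0.18 for COMMD1.

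Of 27 measured effector targets, 17 were higher and 0 lower (63.0% and 0.0%, against 14.3% and 20.8% of all genes), with a median of 0.63. In SKR6CA 13 lay above both lines and 2 below both, against 10.1% and 13.8% of all genes. SKR6-Vector had 12 of the 27 higher and 3 lower than SKR6, with a median of 0.12. Between the transduced lines 12 were higher and 4 lower in SKR6CA, with a median of 0.19. ICAM1, the leukocyte adhesion molecule, was 7.24, 7.23 and 7.16 in SKR6, 7.61, 7.08 and 7.30 in SKR6-Vector, and 8.74, 8.57 and 8.63 in SKR6CA. It differed by 1.44 from SKR6 (SE 0.113, adjusted p = 8.5e-06) and by 1.32 from SKR6-Vector. Its other probe sets gave 1.76 and 0.16. SELE (E-selectin) was graded, at 3.63 to 4.14 in SKR6, 5.54 to 5.77 in SKR6-Vector and 6.34 or more in SKR6CA. The SKR6 values lie near the bottom of the scale, so the size of SELE's difference from SKR6 is uncertain. The 3 lines did not overlap for SELE, and SKR6CA exceeded SKR6-Vector by 1.01 (adjusted p = 0.00108).

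The immune effectors CFB and PIGR were higher on the probe sets chosen by the rule, and their probe sets disagreed. CFB, complement factor B, went from 6.35, 6.21 and 6.23 to 10.65, 10.73 and 10.78, a difference of 4.46 (SE 0.115, adjusted p = 7.13e-09), with SKR6-Vector at 5.55 to 6.02. The other CFB probe set gave -0.10. PIGR, the transporter of polymeric antibodies, was higher by 2.00 on one set and 0.38 on the other. GADD45B, a stress-induced survival gene, IRF1, an interferon pathway factor, PLAU (urokinase) and SOD2, the mitochondrial superoxide dismutase, were higher by 1.80, 1.59, 1.52 and 1.22 and all differed from SKR6-Vector. LCN2, an iron carrier, ran the other way between the transduced lines, higher by 0.82 in SKR6CA and by 2.19 in SKR6-Vector. PTGS2 (cyclooxygenase), PTX3, NOS2 and IL32 gave differences of 0.08, 0.01, -0.07 and -0.08 and were not called. PTGS2 stood at 3.50 to 3.77 on all 9 arrays, near the bottom of the scale.

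Some secreted factors were higher. Of 23 chemokines 6 were higher (26.1%, against 14.3% of all genes) and 1 lower (4.3%, against 20.8%). In SKR6CA 7 lay above both lines, against 10.1% of all genes. CCL20, which attracts CCR6-bearing lymphocytes and dendritic cells, was 5.52, 5.28 and 5.18 in SKR6, 5.70, 5.53 and 5.65 in SKR6-Vector, and 9.38, 9.67 and 9.88 in SKR6CA. SKR6CA stood alone, with differences of 4.32 from SKR6 (SE 0.124, adjusted p = 1.11e-08) and 4.02 from SKR6-Vector (adjusted p = 1.4e-08). CCL2, the monocyte attractant, was 7.25 to 7.48 in SKR6, 8.17 to 8.27 in SKR6-Vector and 10.18 to 10.41 in SKR6CA. It was intermediate in SKR6-Vector, and SKR6CA exceeded it by 2.07 (adjusted p = 3.71e-08). CXCL16 was higher by 1.6, and CXCL8 (interleukin 8), CXCL1 and CXCL10 by 1.03, 0.95 and 0.71, while CCL5 was lower by 0.44, and without SKR6 replicate 2 the lower chemokines were 2. With all 12 arrays CXCL8 (adjusted p = 0.19) and CCL5 (0.357) were not called, and the other CXCL8 probe set gave 0.48. CXCL2, CXCL3, CXCL5 and CXCL6, relatives of CXCL1, gave 0.11, 0.07, 0.06 and 0.03 and were not called.

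TNF, the inflammatory cytokine that itself activates NF-kB, was 6.11, 6.33 and 6.21 in SKR6 and 8.94, 9.07 and 9.05 in SKR6CA, against 6.29 to 6.54 in SKR6-Vector. It was the cytokine with the largest difference of the 21 measured, 2.80 (SE 0.0778, adjusted p = 9.64e-09). In all, 5 cytokines were higher and 2 lower (23.8% and 9.5%, against 14.3% and 20.8% of all genes). The count of higher cytokines was 3 without SKR6 replicate 1, SKR6 replicate 3, SKR6CA replicate 1 or SKR6CA replicate 2. IL12A and IL15 were higher by 0.99 and 0.67, yet by 1.55 and 1.11 in SKR6-Vector, and SKR6CA was below SKR6-Vector for both. The other IL15 probe set gave 0.30 and was not called. IL6 was 4.66 to 4.78 in SKR6 and 4.88 to 5.17 in SKR6CA, a difference of 0.29 (adjusted p = 0.0385). The count of 3 was TNF, IL12A and IL15 in each of the runs without 1 array named above, and with all 12 arrays. IL6 was therefore not called in any of these runs. IL1A, IL1B and LIF gave -0.06, 0.07 and 0.18 and were not called.

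Of 10 survival proteins 3 were higher and 1 lower (30.0% and 10.0%, against 14.3% and 20.8% of all genes). BCL2A1, a BCL2 family inhibitor of apoptosis and a known NF-kB target, was 3.66, 3.44 and 3.75 in SKR6, 3.61 to 3.74 in SKR6-Vector, and 5.52, 5.36 and 5.94 in SKR6CA. SKR6CA did not overlap either line, with a difference of 1.99 (SE 0.134, adjusted p = 3.06e-06) at a low level, where its size is uncertain. CFLAR (FLIP), which blocks caspase 8 at death receptors, was 9.91 to 9.99 in SKR6, 9.79 to 9.86 in SKR6-Vector and 10.36 to 10.43 in SKR6CA, a difference of 0.44 (adjusted p = 4.19e-05). The mean of its probe sets gave 0.28, and with all 12 arrays it was not called (adjusted p = 0.0842). MCL1 was higher by 0.35, and by 0.34 in SKR6-Vector. BCL2L1 (BCL-XL), XIAP, BIRC2 and BCL2 gave 0.00, -0.05, 0.01 and -0.21 and were not called, although other probe sets of BCL2L1 and BCL2 gave -0.26 and -0.60, both called among all probe sets. With the mean of probe sets, 3 survival genes were lower. BIRC5 (survivin), which is also a mitotic gene, was lower by 0.25 (not called with all 12 arrays, adjusted p = 0.332), and without SKR6 replicate 2 the lower survival genes were 2.

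Among genes that promote death, of 10 pore formers and BH3-only proteins 6 were higher and 2 lower (60.0% and 20.0%, against 14.3% and 20.8% of all genes). SKR6-Vector had 3 higher and 2 lower than SKR6. Between the transduced lines 3 were higher and 4 lower in SKR6CA, with a median of -0.115. PMAIP1 (NOXA), which neutralises MCL1, was higher by 0.75 against SKR6 and by 1.77 against SKR6-Vector, and its other probe set gave 0.48 against SKR6. BAK1, a pore former, was higher by 0.40, while BAX, the other main pore former, was lower by 0.46 (adjusted p = 0.00708). BAX ran at 8.33 to 8.65 in SKR6, 8.39 to 8.52 in SKR6-Vector and 7.80 to 8.19 in SKR6CA, with no overlap. BMF was higher by 0.21 against SKR6 and lower by 1.08 against SKR6-Vector, which exceeded SKR6 by 1.30. Death receptors and caspases had 4 of 17 higher and 4 lower (23.5% each, against 14.3% and 20.8% of all genes). Among the lower were CASP6 and CASP2, by 0.57 and 0.56, and the TRAIL receptor TNFRSF10A, by 0.44. TNFRSF10A was lower by 0.44 in SKR6-Vector too. The other CASP6 set gave -0.26 and the mean of the CASP2 sets -0.30.

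Among 13 ERBB receptors and ligands 2 were higher (15.4%) and 3 lower (23.1%), near the 14.3% and 20.8% of all genes. EGFR, the partner of HER2, was 8.50, 8.56 and 8.66 in SKR6, 10.55, 10.64 and 10.72 in SKR6-Vector, and 11.13, 11.08 and 11.09 in SKR6CA. Both transduced lines were far above SKR6, and SKR6CA was the highest. The difference from SKR6 was 2.52 (SE 0.0588, adjusted p = 4.36e-09), that of SKR6-Vector from SKR6 was 2.06, and that between the transduced lines was 0.46 (adjusted p = 0.000167). EGFR's other probe sets with high signal gave 2.57 and 2.02, and the mean of all its sets 1.02.

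ERBB2 was 13.80, 13.85 and 13.84 in SKR6 and 14.06, 14.00 and 14.06 in SKR6CA, near the top of the array's scale. The groups did not overlap and the difference was small, 0.21 (SE 0.0384, adjusted p = 0.00183), with SKR6-Vector between at 13.92 to 13.93. The ERBB2 probe sets gave 0.21, 0.57 and 0.00. ERBB2 was the 1 gene higher among 13 genes of its amplicon, and 6 were lower (7.7% and 46.2%, against 14.3% and 20.8% of all genes). SKR6-Vector had 2 of the 13 higher and 7 lower than SKR6. Between the transduced lines 4 were higher and 4 lower in SKR6CA, with a median of 0.03. GSDMB and PPP1R1B were lower by 0.49 and 0.42, and SKR6CA minus SKR6-Vector was -0.38 and 0.70. The other GSDMB sets gave 0.00 and -0.45, and PPP1R1B was not called with all 12 arrays (adjusted p = 0.156). GRB7 and MIEN1 gave 0.06 and -0.02 without a call. ERBB3, the kinase-poor partner of HER2, went from 11.70 to 11.74 in SKR6 to 11.50 to 11.57 in SKR6CA, lower by 0.19 (adjusted p = 0.0036) and by 0.37 than SKR6-Vector. This rests on 1 ERBB3 probe set: the others gave -0.10, 0.27, -0.03 and 0.04, their mean with it 0.00 (adjusted p = 0.974), and with all 12 arrays it was not called (adjusted p = 0.0779). The ligand EGF was lower by 0.53.

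Of 12 feedback inhibitors of ERBB and ERK signalling 2 were higher and 4 lower (16.7% and 33.3%, against 14.3% and 20.8% of all genes). DUSP6, the ERK phosphatase whose transcript is itself a readout of ERK output, was 7.40, 7.43 and 7.35 in SKR6, 7.88 to 8.13 in SKR6-Vector, and 6.11, 5.56 and 6.05 in SKR6CA. The transduced lines moved to opposite sides of SKR6, by -1.49 in SKR6CA (SE 0.133, adjusted p = 1.98e-05) and by 0.58 in SKR6-Vector (adjusted p = 0.00686). LRIG1 and SPRY4, inhibitors of receptor signalling, were lower by 0.74 and 0.72, and SKR6-Vector minus SKR6 was -0.68 and -0.37. LRIG1 did not differ by a call between the transduced lines (-0.06, adjusted p = 0.457). The other LRIG1 sets gave 0.17, 0.08 and 0.02, and the mean of its sets -0.12 without a call (adjusted p = 0.069). DUSP1, an inducible phosphatase of stress kinases, was higher by 0.75 (0.40 for the mean of its sets), and by 0.81 in SKR6-Vector.

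Immediate-early factors were higher, 10 of 11 measured and 0 lower (90.9% and 0.0%, against 14.3% and 20.8% of all genes). The median was 0.56, and 8 lay above both lines, against 10.1% of all genes. FOSB, FOS, JUN and EGR1, transcription factors induced within minutes of stimulation, were higher by 2.21, 1.81, 1.59 and 1.22. JUN was 10.27 to 10.64 in SKR6, 10.92 to 11.15 in SKR6-Vector and 11.95 to 12.08 in SKR6CA, so SKR6-Vector was intermediate. FOS varied most among the SKR6 cultures, at 10.18, 9.27 and 9.25, and its difference from SKR6-Vector was 0.56 and not called. FOSL1 gave -0.01.

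**Figure D2:**
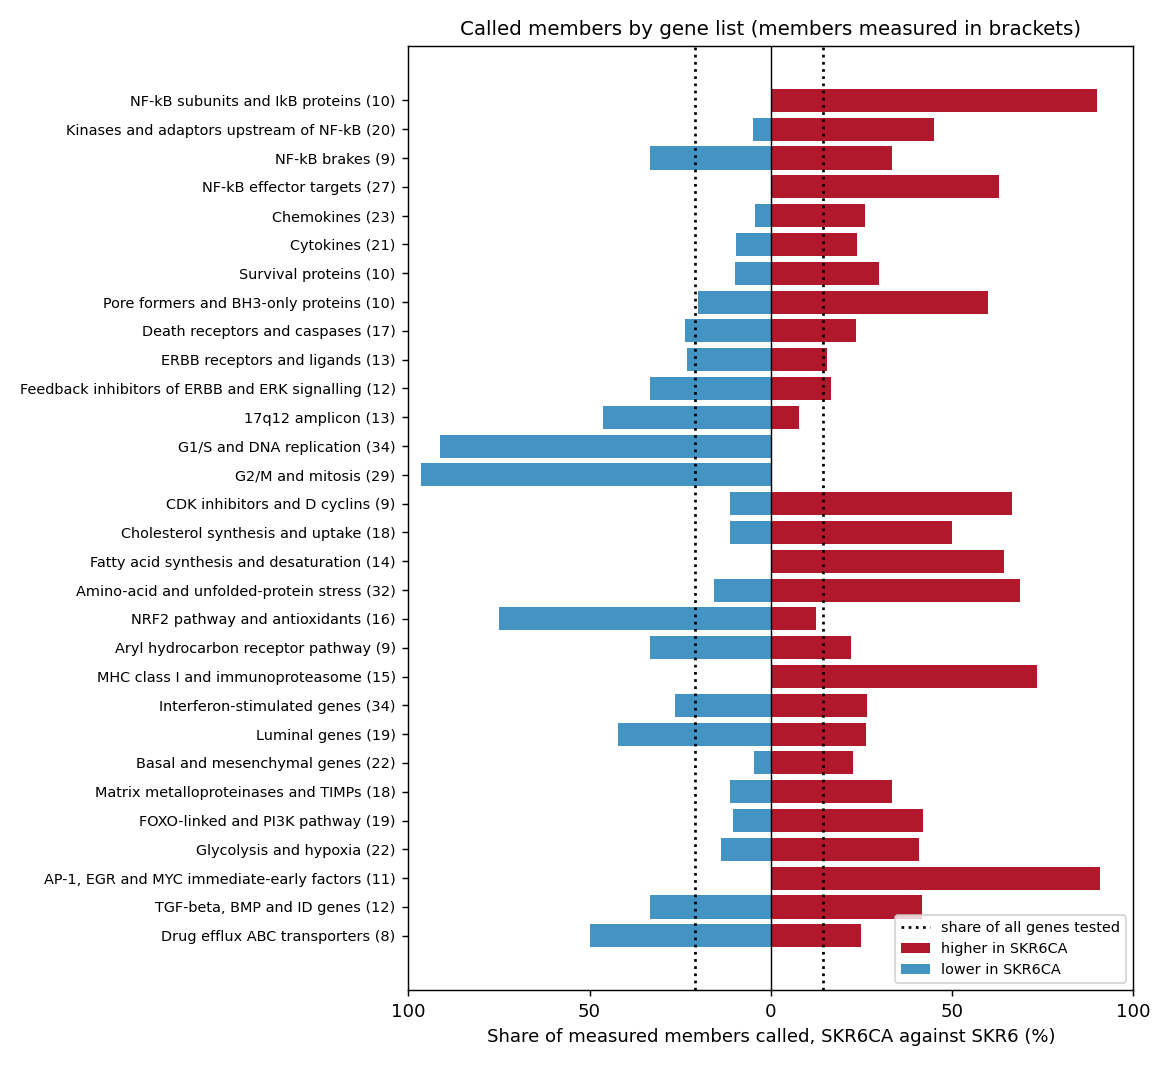
Share of measured members (percent, horizontal axis) called higher (right) or lower (left) in SKR6CA than in SKR6 for 30 gene lists, with the number measured in brackets and dotted lines at the shares of all genes tested, 14.3% higher and 20.8% lower. NF-kB subunits, immediate-early factors and the MHC class I genes lie mostly to the right, and the replication and mitosis lists lie almost wholly to the left.

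Most cell cycle genes were lower. Of 34 G1/S and DNA replication genes 0 were higher and 31 lower (91.2%), with a median of -0.42. Of 29 G2/M and mitosis genes 0 were higher and 28 lower (96.6%), also with a median of -0.42. The shares of all genes were 14.3% higher and 20.8% lower. SKR6-Vector gave nearly the same picture against SKR6, with 30 and 27 lower and medians of -0.48 and -0.44. Between the transduced lines the medians were 0.03 and 0.05. With all 12 arrays in the fit, each list had 18 members lower. MCM2, a subunit of the replicative helicase, was 10.49, 10.47 and 10.58 in SKR6, 9.66, 9.75 and 9.68 in SKR6-Vector, and 9.60, 9.59 and 9.44 in SKR6CA. Both transduced lines were clear of SKR6, by -0.97 in SKR6CA (SE 0.0557, adjusted p = 1.02e-06), and differed from each other by -0.16 (adjusted p = 0.055).

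GINS2, another helicase component, and the activator E2F2 were lower by 0.86 and 0.78, and the licensing factor CDT1 by 0.73. GINS2's other probe sets gave 0.04 and -0.26, the second CDT1 set -0.16, and the other E2F2 sets -0.31 and -0.02. The spindle checkpoint kinase BUB1B, the condensin subunit NCAPG, the kinesin CENPE and the kinase TTK were lower by 0.68, 0.60, 0.57 and 0.57. MKI67, the proliferation antigen, was 10.91 to 11.05 in SKR6, 10.26 to 10.31 in SKR6-Vector and 10.40 to 10.56 in SKR6CA. It was lower by 0.52 than SKR6 and higher by 0.18 than SKR6-Vector (adjusted p = 0.0308). TK1, MCM7, E2F1 and PLK1 gave -0.07, -0.09, -0.15 and -0.10 and were not called. In bulk RNA, fewer cycling cells and less of these transcripts per cell cannot be told apart.

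CDK inhibitors and D cyclins, which set the pace of G1, were higher in 6 of 9 and lower in 1. These shares, 66.7% and 11.1%, compare with 14.3% and 20.8% of all genes. CDKN2B (p15) was 5.78, 5.86 and 5.49 in SKR6, 10.28, 9.99 and 10.27 in SKR6-Vector, and 8.66, 8.57 and 8.46 in SKR6CA. The lines did not overlap, and SKR6CA lay between, 2.85 above SKR6 (SE 0.108, adjusted p = 6.93e-08) with a difference of -1.62 from SKR6-Vector (adjusted p = 2.3e-06). Its second probe set gave 0.31. CDKN1A (p21) was 7.83 to 7.99 in SKR6, 9.02 to 9.22 in SKR6-Vector and 8.94 to 8.97 in SKR6CA, a difference of 1.04 from SKR6 and -0.14 from SKR6-Vector (adjusted p = 0.132). CDKN2A was higher by 0.63 and by 1.22 in SKR6-Vector, so SKR6CA stood -0.59 from SKR6-Vector, and the other CDKN2A probe sets gave 0.10 and -0.21 without a call. CCND1 (cyclin D1) was higher by 0.33, and by 0.29 than SKR6-Vector, but its other probe set gave 0.08 without a call.

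Transcripts of many lipid synthesis genes were higher. Of 14 fatty acid synthesis and desaturation genes 9 were higher and 0 lower (median 0.32), and 9 lay above both lines. Of 18 cholesterol synthesis and uptake genes 9 were higher and 2 lower (median 0.43). Over all genes 14.3% were higher, 20.8% lower and 10.1% above both lines. INSIG1, the sterol-responsive retention protein of the SREBP factors, was 7.07, 7.03 and 6.99 in SKR6, 8.36, 8.10 and 8.14 in SKR6-Vector, and 10.08 on each SKR6CA array. The lines were well separated, with differences of 3.05 from SKR6 (SE 0.0658, adjusted p = 3.33e-09) and 1.88 from SKR6-Vector (adjusted p = 3.17e-08).

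FASN, fatty acid synthase, was 10.90 to 10.94 in SKR6, 11.47 to 11.58 in SKR6-Vector and 12.36 to 12.41 in SKR6CA, a difference of 1.48. SCD, the stearoyl-CoA desaturase, went from 11.02 to 11.12 in SKR6 to 12.85 to 12.97 in SKR6CA, a difference of 1.85, with SKR6-Vector at 11.87 to 11.98. Both showed the same graded order, SKR6, SKR6-Vector, SKR6CA. SREBF1 and SREBF2, the genes for the SREBP factors, were higher by 1.23 and 0.86, and STARD4, a sterol carrier, by 2.93. DHCR7, MSMO1 and SQLE of the sterol pathway were higher by 1.14, 1.06 and 0.55, while PMVK and EBP were lower by 0.69 and 0.27. The second sets of SREBF1 and FASN gave 0.40 and 0.57, and the mean of the EBP sets -0.07 without a call. IDI1 was higher by 1.07 and 1.02 on its 2 brightest probe sets and gave -0.24 and -0.41 on the others. FDPS, LSS and ACLY gave -0.03, 0.04 and 0.11 and were not called.

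Stress genes of the amino-acid and unfolded-protein responses were higher in 22 of 32 and lower in 5, with a median of 0.41. These shares, 68.8% and 15.6%, compare with 14.3% and 20.8% of all genes. Above both lines lay 22, against 10.1% of all genes. The count of lower members was 3 without SKR6 replicate 1, SKR6 replicate 3 or SKR6CA replicate 3. SLC7A11, the cystine importer, was 7.62, 7.62 and 7.63 in SKR6, 7.19, 7.38 and 7.01 in SKR6-Vector, and 9.13, 9.12 and 9.25 in SKR6CA. SKR6CA was the highest and SKR6-Vector the lowest, with differences from SKR6 of 1.54 (SE 0.083, adjusted p = 6.74e-07) and -0.43. Its other probe sets gave 1.64 and 0.16. ATF3 and DDIT4, stress-induced regulators, were higher by 1.89 and 1.56, but also by 1.36 and 1.96 in SKR6-Vector, and the mean of the ATF3 sets was 1.05. CHAC1, HERPUD1 and ERN1 were higher by 0.99, 0.91 and 0.91, and the central factors ATF4, DDIT3 (CHOP) and HSPA5 (BiP) by 0.33, 0.41 and 0.40. PHGDH, the entry enzyme of serine synthesis, and ATF5 were lower by 0.88 and 0.62. The other sets gave 0.45 for HERPUD1, 0.33 and 0.26 for ERN1, and -0.43, 0.00 and -0.07 for ATF5.

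The NRF2 pathway and antioxidant genes were mostly lower, 12 of 16 with 2 higher and a median of -0.22. SKR6-Vector had 10 lower and 3 higher, with a median of -0.24. AKR1C2 and AKR1C1, aldo-keto reductases, were lower by 0.73 and 0.54, and KEAP1 and ABCC2 by 0.48 and 0.42. AKR1C2's other probe sets gave -0.65 and 0.09, and those of AKR1C1 -0.28, -0.05, -0.02 and 0.00. AKR1C1 and AKR1C2 are near-identical copies whose signals an array may not separate. NQO1, a standard NRF2 target, was higher by 0.18 (not called with all 12 arrays, adjusted p = 0.312) and HMOX1 gave -0.04 without a call.

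The aryl hydrocarbon receptor genes held a pair of large falls. CYP1A1, the xenobiotic-metabolising enzyme induced by this receptor, was 9.63, 9.60 and 9.68 in SKR6, 10.03, 10.08 and 10.05 in SKR6-Vector, and 6.17, 6.18 and 5.77 in SKR6CA. SKR6CA alone was low, by -3.60 against SKR6 (SE 0.097, adjusted p = 8.27e-09) and by -4.02 against SKR6-Vector (adjusted p = 4.39e-09). CYP1B1, its relative, went from 12.58 to 12.60 in SKR6 to 10.45 to 10.63 in SKR6CA, a difference of -2.05, with SKR6-Vector at 12.70 to 12.74. The receptor gene AHR was higher by 0.23, a call lost without SKR6 replicate 3 (adjusted p = 0.0516), and its partner ARNT gave -0.08. The repressor AHRR was lower by 0.36, and TIPARP, another target, was higher by 0.22, and with all 12 arrays neither was called (adjusted p = 0.507 and 0.199). In all, 2 of the 9 genes were higher and 3 lower (22.2% and 33.3%, against 14.3% and 20.8% of all genes).

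**Figure D3:**
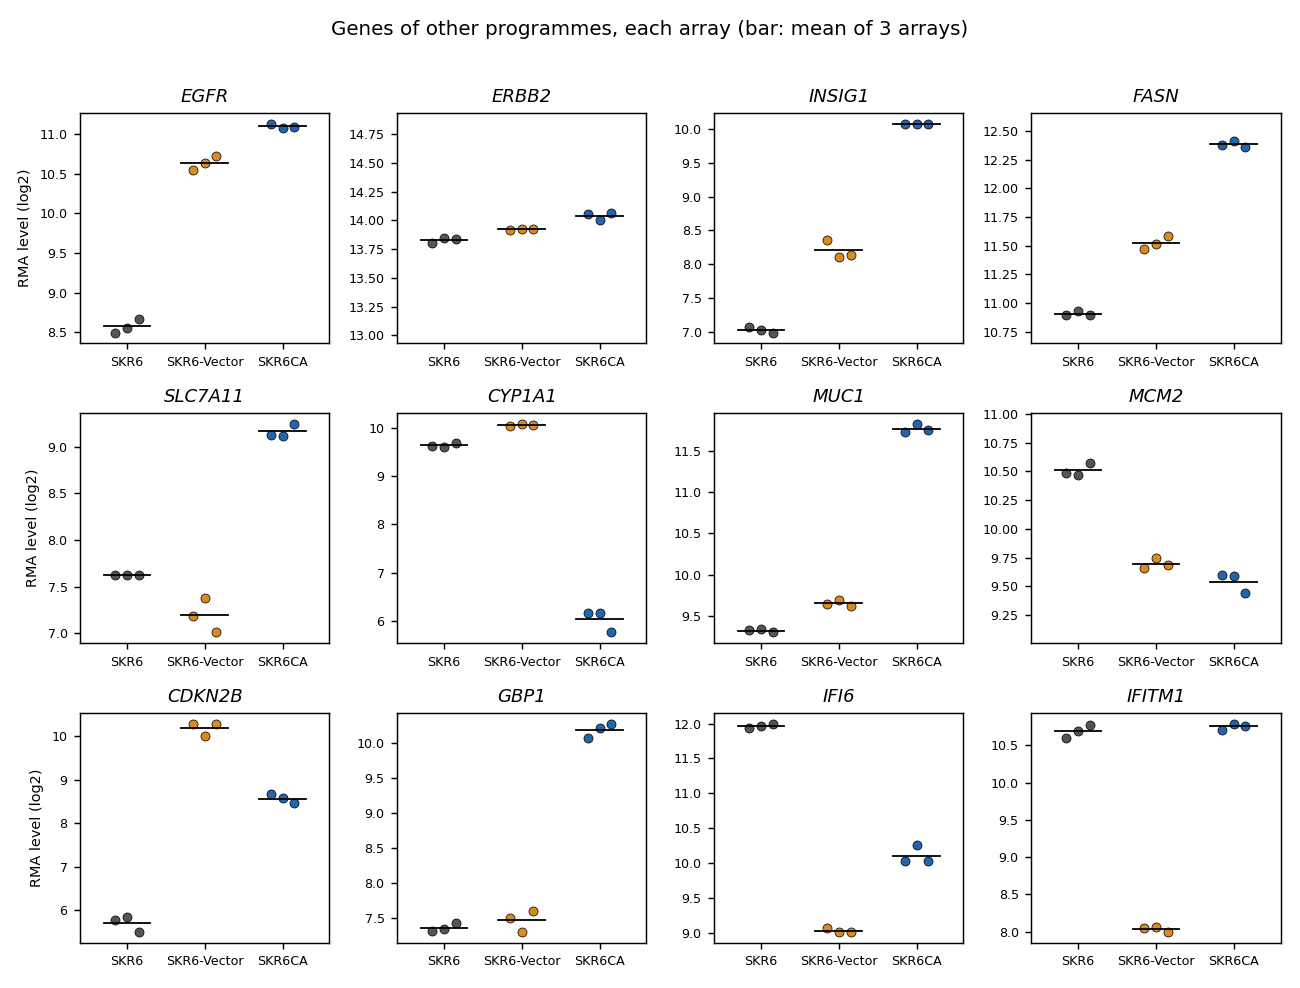
RMA level (log2, vertical axis, each panel with its own scale) of 12 genes of other programmes on each of the 3 arrays of SKR6, SKR6-Vector and SKR6CA, with bars at the mean. CYP1A1, MUC1 and GBP1 set SKR6CA apart from both lines, EGFR, INSIG1 and FASN are graded, MCM2 is low in both transduced lines, and IFITM1 is low in SKR6-Vector.

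Antigen presentation genes were higher. Of 15 MHC class I and immunoproteasome genes 11 were higher and 0 lower (73.3% and 0.0%, against 14.3% and 20.8% of all genes). The median was 0.80, and 10 lay above both lines, against 10.1% of all genes. SKR6-Vector had 9 of them higher than SKR6 and 0 lower, with a median of 0.23. PSMB9, a catalytic subunit of the immunoproteasome, was 6.57, 6.55 and 6.66 in SKR6, 7.74, 7.69 and 7.73 in SKR6-Vector, and 8.39, 8.51 and 8.57 in SKR6CA. The 3 lines were separate, with 1.90 between SKR6CA and SKR6 (SE 0.0542, adjusted p = 1.09e-08) and 0.77 between SKR6CA and SKR6-Vector. PSMB8 and PSMB10, its partners, were higher by 1.11 and 1.06, the peptide transporter subunits TAP2 and TAP1 by 1.08 and 0.80, and the trimming enzymes ERAP2 and ERAP1 by 0.94 and 0.80. The mean of the TAP2 sets was 0.64, other sets of ERAP1 ran from 0.08 to 1.10, and those of ERAP2 from 0.16 to 0.43. The class I chains HLA-B, HLA-C and B2M gave 0.16, 0.04 and 0.01, of which HLA-B was called, with 0.01 and -0.07 on its other sets. HLA genes resemble each other closely, so a probe set may detect several of them.

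Interferon-stimulated genes were called in both directions. Of 34 measured, 9 were higher and 9 lower (26.5% each, against 14.3% and 20.8% of all genes), with a median of 0.07. SKR6-Vector had 1 higher and 19 lower than SKR6, with a median of -0.49. In the direct test of the transduced lines 23 of the 34 were higher in SKR6CA and 0 lower, with a median of 0.54, where 16.3% of all genes were higher and 19.7% lower. GBP1, a guanylate-binding protein, was 7.31, 7.33 and 7.42 in SKR6, 7.29 to 7.59 in SKR6-Vector, and 10.07, 10.23 and 10.28 in SKR6CA. SKR6CA alone was high, by 2.84 (SE 0.0831, adjusted p = 1.21e-08), and GBP2 was higher by 2.65.

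IFI6, a type I interferon target, was 11.93 or more in SKR6, 9.06 or less in SKR6-Vector, and 10.02, 10.26 and 10.03 in SKR6CA. SKR6CA was below SKR6 by -1.86 (adjusted p = 3.86e-08) and above SKR6-Vector by 1.08 (adjusted p = 1.15e-06). IFI27, IFI44 and BST2, further interferon targets, differed by -2.80, -1.57 and -1.49 from SKR6 and by 1.23, 0.76 and 1.02 from SKR6-Vector. The other IFI44 probe set gave -0.30 against SKR6 and was not called. A different order was seen in IFITM1, a membrane restriction factor. It stood at 10.60 to 10.78 in SKR6, 7.99 to 8.06 in SKR6-Vector and 10.71 to 10.79 in SKR6CA, so SKR6CA overlapped SKR6 (difference 0.07, SE 0.053, adjusted p = 0.389) and SKR6-Vector alone was low. IRF9, a subunit of the interferon-activated complex ISGF3, was higher by 0.88, and MX2 and RSAD2, antiviral effectors, gave 0.05 and -0.06 without a call.

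**Figure D4:**
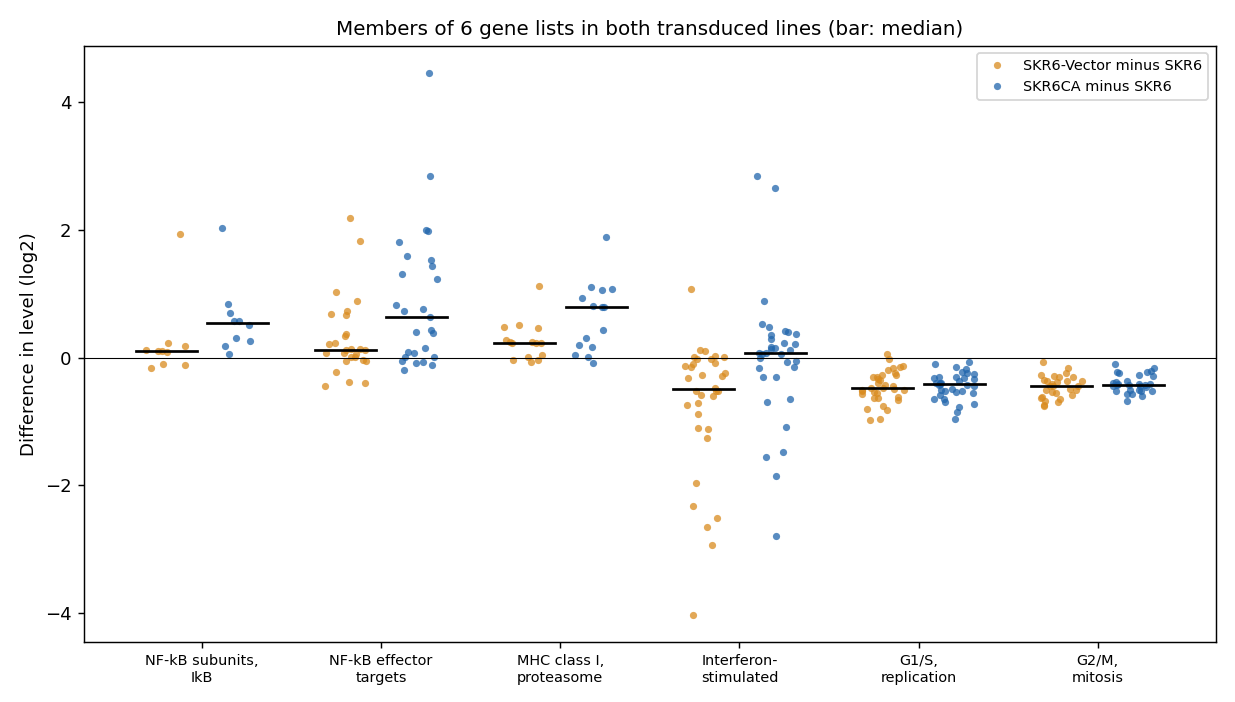
Differences in level (log2, vertical axis) of each measured member of 6 gene lists for SKR6-Vector minus SKR6 (orange) and SKR6CA minus SKR6 (blue), which share the SKR6 arrays, with bars at the medians. The medians are 0.54 for the NF-kB subunits and 0.80 for the MHC class I list in SKR6CA, the interferon list has a median of -0.49 in SKR6-Vector and 0.07 in SKR6CA, and both cell cycle lists lie below 0 in both lines.

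Luminal identity genes were called in both directions, 5 of 19 higher (26.3%) and 8 lower (42.1%), against 14.3% and 20.8% of all genes. MUC1, the surface mucin, was 9.33, 9.34 and 9.30 in SKR6, 9.62 to 9.69 in SKR6-Vector, and 11.73, 11.83 and 11.75 in SKR6CA. SKR6CA alone was high, with a difference of 2.45 (SE 0.0428, adjusted p = 1.06e-09), and the other MUC1 probe sets gave 3.15 and 1.96. TFAP2B, a luminal transcription factor, and TFF1 and TFF3, secreted trefoil peptides, were lower by 1.59, 0.85 and 0.78. For these SKR6-Vector was lower than SKR6 too, by -1.40, -1.21 and -1.04. The mean of the TFAP2B sets was -0.88 in SKR6CA. GATA3, a luminal master regulator, was higher by 0.89, and by 1.77 in SKR6-Vector. KRT8, KRT18 and KRT7 were higher by 0.42, 0.41 and 0.36, with 0.09, -0.03 and -0.07 on the other KRT7 sets, and ESR1 gave -0.08.

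Basal and mesenchymal genes showed 5 of 22 higher (22.7%) and 1 lower (4.5%) in SKR6CA, against 10 higher and 0 lower in SKR6-Vector. Of all genes 14.3% were higher and 20.8% lower in SKR6CA. Without SKR6 replicate 3 or SKR6CA replicate 2 the lower members were 2. Between the transduced lines 0 were higher and 8 lower in SKR6CA. FN1 (fibronectin) was 9.29 to 9.36 in SKR6, 13.33 to 13.45 in SKR6-Vector and 12.49 to 12.53 in SKR6CA. It was far above SKR6 in both, by 3.18 in SKR6CA (SE 0.0458, adjusted p = 3.45e-10), and SKR6CA minus SKR6-Vector was -0.90. The mean of the FN1 sets was 2.12. CAV1, the caveolar coat protein, was 6.13 to 6.50 in SKR6, 11.04 to 11.15 in SKR6-Vector and only 7.67 to 7.80 in SKR6CA, higher than SKR6 by 1.45. The transition factors SNAI1, ZEB1, TWIST1 and the filament gene VIM gave 0.02, -0.04, -0.06 and -0.11 and were not called.

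Matrix proteases included the largest rise of all. MMP13 (collagenase 3) was 5.25, 5.15 and 5.24 in SKR6, 7.45, 7.64 and 7.66 in SKR6-Vector, and 10.64, 10.72 and 10.86 in SKR6CA. The lines were graded without overlap, with 5.52 between SKR6CA and SKR6 (SE 0.0726, adjusted p = 2.21e-10) and 3.15 between the transduced lines (adjusted p = 3.28e-09). MMP1 (interstitial collagenase) was 3.93 to 4.20 in SKR6, 3.93 to 4.05 in SKR6-Vector and 6.71 to 7.12 in SKR6CA, a difference of 2.92 seen in SKR6CA alone. Both low groups lie near the bottom of the scale, where the values carry no detection call, so the size of this difference is uncertain. MMP12 was higher by 1.46, and by 1.22 in SKR6-Vector, from which SKR6CA did not differ by a call (0.24, adjusted p = 0.193). MMP9 and TIMP1 were lower by 0.48 each (TIMP1 not called with all 12 arrays, adjusted p = 0.0692). For these SKR6-Vector minus SKR6 was -0.25 and -1.26, and SKR6CA minus SKR6-Vector -0.23 and 0.78. In all 6 of 18 were higher and 2 lower (33.3% and 11.1%, against 14.3% and 20.8% of all genes). MMP2, MMP3 and MMP14 gave 0.01, 0.08 and -0.03.

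After MMP13, the largest rises were OLR1, CFB, CCL20, BMP7, PTPRB, SAT1, GPC6, TCIM, FN1, DNAAF1 and BPIFA4P. OLR1, a scavenger receptor for oxidised LDL, was 6.43, 6.63 and 6.52 in SKR6, 9.31 to 9.33 in SKR6-Vector, and 11.24, 11.28 and 11.33 in SKR6CA, a difference of 4.76 (SE 0.0548, adjusted p = 1.28e-10). The 3 lines were graded, as for SAT1, the spermidine acetyltransferase, at 9.24 to 9.52, 11.12 to 11.37 and 12.59 to 12.71. PTPRB, a receptor phosphatase, was 3.49 to 3.58 in SKR6, 3.53 to 3.55 in SKR6-Vector and 6.88 to 7.12 in SKR6CA, so SKR6CA stood alone. The SKR6 and SKR6-Vector values lie near the bottom of the scale, so the size of the difference and its rank are uncertain. Its probe sets gave 3.51, 1.21, 0.39 and 0.09. DNAAF1 and BPIFA4P also stood alone, with differences of 3.17 and 3.14, and the second DNAAF1 probe set gave 0.62. BMP7, a growth factor of the TGF-beta superfamily, and GPC6, a glypican, were higher by 4.11 and 3.27 but more so in SKR6-Vector, by 5.18 and 3.67. BMP7's probe sets gave 4.11, 2.68, 1.21 and 0.48, and the second set for GPC6 gave 0.88.

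The largest falls were MUCL1, CYP1A1, CD44, SCGB2A2, GATA5, PIP, IFI27, TNFRSF11B, CD109, IGFBP2, SCGB1D2 and MYRFL. Among them are 4 secretory products of breast or sweat gland epithelium, MUCL1 (small breast epithelial mucin), SCGB2A2 (mammaglobin A), SCGB1D2 (lipophilin B) and PIP (prolactin-induced protein), a grouping made after their values were seen. MUCL1 was 11.90, 11.84 and 11.89 in SKR6, 9.32, 9.54 and 9.47 in SKR6-Vector, and 8.01, 7.90 and 7.88 in SKR6CA, a difference of -3.95 (SE 0.0624, adjusted p = 6.13e-10). SCGB2A2 was 12.53 to 12.54, 10.74 to 11.03 and 8.96 to 9.57 in the same order, and SCGB1D2 7.50 to 7.57, 5.45 to 5.65 and 4.60 to 5.07. PIP was nearly as high in SKR6-Vector (11.43 to 11.58) as in SKR6 (11.95 to 11.99) and low in SKR6CA (8.97 to 9.18). For all 4 genes the SKR6CA arrays lay below those of both other lines.

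CD44, the hyaluronan receptor, was 8.15, 8.10 and 8.03 in SKR6, 7.22 to 7.26 in SKR6-Vector, and 4.62, 4.83 and 4.58 in SKR6CA, a difference of -3.42 (SE 0.0655, adjusted p = 1.66e-09). Its 13 probe sets ran from -3.42 to 0.01. TNFRSF11B (osteoprotegerin), a decoy receptor, was lower by 2.75, and MYRFL by 2.64. GATA5, CD109, a TGF-beta co-receptor, and IGFBP2, which binds insulin-like growth factors, were lower by 3.18, 2.74 and 2.71, and SKR6-Vector minus SKR6 was -3.19, -2.71 and -3.39. SKR6CA did not differ from SKR6-Vector by a call for GATA5 (0.01) and CD109 (-0.02). The second GATA5 set gave -1.40, and the other CD109 sets -0.63 and -0.25.

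**Figure D5:**
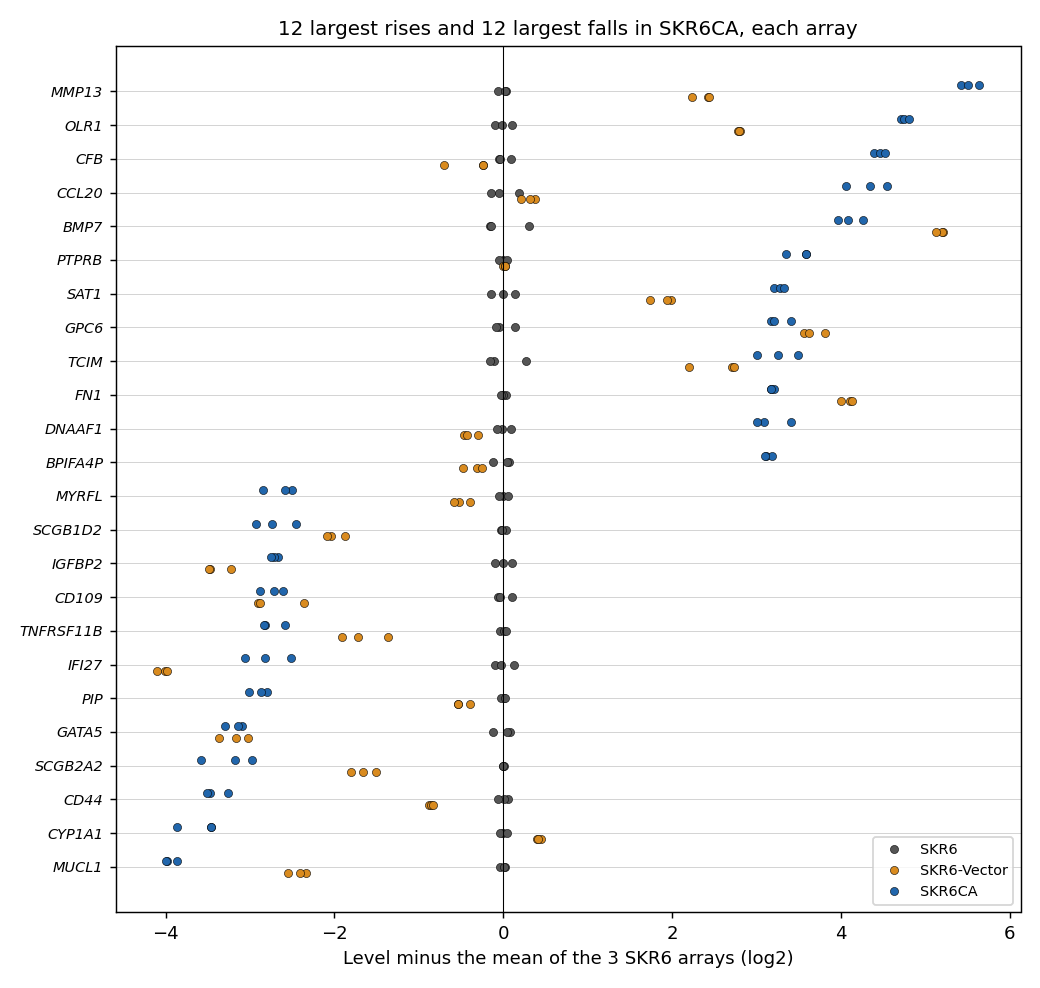
Level minus the mean of the 3 SKR6 arrays (log2, horizontal axis) for the 12 largest rises and the 12 largest falls in SKR6CA (rows), with a point for each array of SKR6, SKR6-Vector and SKR6CA. CFB, CCL20, PTPRB, DNAAF1, BPIFA4P and CYP1A1 are far from SKR6 in SKR6CA alone, while BMP7, GPC6, FN1, GATA5, CD109, IFI27 and IGFBP2 are as far or farther from SKR6 in SKR6-Vector, or nearly so.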

How the data were processed

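RNA from 12 cultures of 4 lines was hybridised to 3′ arrays of 54675 probe sets. The deposited values are log2 values made by the authors with RMA, which with limma is named in the submitters' processing notes, without parameters or limma's role. RMA normalises over all arrays, so levels are relative, and low values carry no detection call. Gene names came from the platform's annotation, updated to RefSeq symbols (GRCh38.p14). Of the probe sets 41097 had 1 gene, 1801 several and 11777 none here. Gene IDs matched for 41043, and 54 kept the older symbol. For each of 19775 genes, the probe set naming that gene alone and brightest on average over 12 arrays was used.

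Differences were fitted with limma 3.58.1 in R 4.3.3 (lmFit, eBayes) on 9 arrays of SKR6, SKR6-Vector and SKR6CA, since the SKR6LR replicates had a mean SD of 0.209. Benjamini-Hochberg adjustment of p-values ran over all genes, and p-values rest on the spread among cultures the labels call biological replicates. The number of arrays limits the precision. The fit was tested on simulated data. Of 592 entries in 33 gene lists 546 were measured. The members and lists were chosen with earlier results of these data known. Genes named were ERBB2, ERBB3, EGFR, RELA, the 12 called genes without overlap that rose most and the 12 that fell most, the 8 largest each way called against both SKR6 and SKR6-Vector, and up to 4 called members of each list that rose most and 4 that fell most. All other members, those not called included, were named after their values were seen. Motifs were counted in the 250 bases before RefSeq starts. Alternatives were the replicate block, other array sets, each array left out, cyclic loess, median centring, a robust trend, a filter, other probe set choices and an adjusted p under 0.01.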

Additional observations from a re-analysis of the deposited data

How the results depend on the processing

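The counts of genes higher and lower in SKR6CA (2835 and 4118) stayed within 1.5 times under every alternative, with lows of 1972 and 2838 with all 12 arrays and highs of 3381 higher with cyclic loess and 4433 lower with a robust trend (3047 higher there). Leaving out 1 array gave 2472 to 2696 higher and 3592 to 3961 lower genes, 256 to 264 higher by at least 1 and 175 to 189 lower by at least 1. The mean of all probe sets of a gene left 119 genes lower by at least 1, against 179. Cyclic loess gave 3502 lower genes, and median centring 3296 higher and 3598 lower. The replicate numbers did not pair the cultures, since deviations of SKR6 and SKR6CA arrays of the same number correlated at 0.05, -0.03 and -0.02, and the replicate block gave 2699 higher and 3944 lower genes. Of 187 named genes 136 kept direction and call under every alternative run, 32 lost the call with all 12 arrays and 12 without at least 1 array. The direction turned in 6 named genes, only when probe sets of the _x_at and _s_at types were left out: CFB -0.10, GINS2 0.0389, CDKN2D 0.20, IDI1 -0.41, AKR1C2 0.0905 and ENO1 0.0811. That choice tests 17100 genes and lowered the counts of higher members from 17 to 10 for effector targets, 9 to 5 for NF-kB subunits, 11 to 7 for MHC class I and 22 to 12 for the stress list. With all 12 arrays, 6 NRF2 pathway genes were lower, against 12, and 5 interferon-stimulated genes higher, against 9.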

Other observations

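Of 8 ABC transporters 2 were higher and 4 lower in SKR6CA than in SKR6, with a median difference of -0.16. Against SKR6-Vector 1 was higher and 5 lower in SKR6CA, with a median of -0.92. ABCB1 and ABCG2 gave -0.03 and 0.13 against SKR6 and were not called. ABCC3 (MRP3) was 6.71 to 6.80 in SKR6, 9.57 to 9.65 in SKR6-Vector and 6.41 to 6.52 in SKR6CA, a difference of -0.30 from SKR6 (adjusted p = 0.000761) and -3.16 from SKR6-Vector (adjusted p = 4.26e-10). The other ABCC3 probe sets gave -0.20, 0.08, -0.07 and -0.10 against SKR6 without a call, and with all 12 arrays the first was not called (adjusted p = 0.178). ABCG1 and ABCC5 were lower than SKR6 by 0.99 and 0.78. The other ABCG1 sets gave -0.60 to -1.35, and those of ABCC5 -0.13 and -0.40, the first without a call. ABCC4 was higher by 0.33 (adjusted p = 0.0454), a call lost without SKR6 replicate 1 or 2 or any 1 SKR6CA array, with -0.06, 0.09 and 0.19 on its other sets. ID1, a BMP-responsive inhibitor of differentiation, was 12.03 to 12.11 in SKR6, 12.43 to 12.48 in SKR6-Vector and 10.72 to 10.98 in SKR6CA, a difference of -1.25 (adjusted p = 4.92e-07). TGFB2 was higher by 1.76 (0.99 for the mean of its sets), and by 2.03 in SKR6-Vector. In all, 5 of 12 TGF-beta, BMP and ID genes were higher and 4 lower (41.7% and 33.3%, against 14.3% and 20.8% of all genes).

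Of 22 glycolysis and hypoxia genes 9 were higher and 3 lower (40.9% and 13.6%, against 14.3% and 20.8% of all genes). The count of lower members was 1 without SKR6 replicate 3 or SKR6CA replicate 3. ADM and VEGFA, secreted vascular factors, were higher by 1.20 and 0.83. PFKFB3 and ALDOC, of glycolysis, were higher by 0.76 and 0.72, and PFKFB3 by 2.11 in SKR6-Vector. ANKRD37, BNIP3 and ENO1 gave -0.52, -0.17 and -0.15, all called, the last 2 not with all 12 arrays (adjusted p = 0.303 and 0.0972). GAPDH, PGK1, LDHA and SLC2A1 gave 0.04, 0.03, -0.07 and 0.03 and were not called, though the second SLC2A1 set gave 0.46. Among 19 FOXO-linked and PI3K pathway genes 8 were higher and 2 lower (42.1% and 10.5%, against 14.3% and 20.8% of all genes). SKR6-Vector had 12 higher and 2 lower than SKR6. Between the transduced lines 6 were higher and 10 lower in SKR6CA, with a median of -0.27. FOXO1, KLF6 and IRS1 were higher by 1.27, 1.26 and 1.09, and SKR6-Vector gave 1.06, 0.04 and 1.03 for the same genes. The mean of the probe sets was 0.84 for FOXO1 and 0.67 for IRS1. TXNIP and PIK3R3 were lower by 0.37 and 0.48.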
